A study of Mus musculus with 57 samples.

Results

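The transforming growth factor β (TGFβ) system of mouse adipose tissue was followed through 10 genes, chosen by gene symbol. They are the ligand genes Tgfb1, Tgfb2 and Tgfb3, the receptor genes Tgfbr1, Tgfbr2 and Tgfbr3, and the latent TGFβ binding protein genes Ltbp1, Ltbp2, Ltbp3 and Ltbp4. These are 10 of the 52853 genes in the count tables, and all 10 passed the filter on low counts in every comparison. RNA-seq counts were available for 41 tissue samples in 6 groups, each sample from 1 mouse. Knock-in (KI) mice were homozygous for R707W in the endogenous gene for mitofusin 2 (Mfn2), an outer mitochondrial membrane protein that joins mitochondria, and wild-type (WT) mice carried the unedited gene. All mice were male, on a C57BL/6J background, and were given either chow or a high-fat diet (HFD, 45% of kcal as fat) from 5 weeks of age for 6 months. Inguinal white adipose tissue (WAT) was sampled on chow (7 WT and 6 KI) and on HFD (8 WT and 8 KI), and brown adipose tissue (BAT) on HFD (6 WT and 6 KI). The change was present in every tissue, so an effect of the mutation in adipocytes cannot be told apart from one elsewhere in the animal. The line was expanded from 1 founder, and the paper states that the edited allele also carried silent changes. An effect of R707W therefore cannot be told apart from one of other changes linked to it in that founder.

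TGFβ ligands are made as precursors. Furin-type proteases cut each precursor between the latency peptide and the mature ligand, but the pieces stay bound together, and a latent binding protein often ties this inactive complex to matrix fibrils until integrins, proteases or thrombospondin-1 release it. Free ligand binds TGFBR2, which recruits TGFBR1 and so activates SMAD2 and SMAD3, while TGFBR3 (betaglycan) is a co-receptor that presents ligand, TGFβ2 in particular. In adipose tissue TGFβ is known to restrain adipocyte differentiation and to drive matrix deposition.

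The furin-type site is shown because it separates the ligand from the peptide on which the binding proteins act. In GENCODE vM21 (GRCm38) it lay in exon 5 of the 7 exons of each ligand gene, at chr7:25697223-25697258 on the plus strand for Tgfb1, at chr1:186630624-186630659 on the minus strand for Tgfb2 and at chr12:86062042-86062077 on the minus strand for Tgfb3. The 36 coding bases around the site are given 5′ to 3′, with the 4 codons of the site in capitals.
Tgfb1: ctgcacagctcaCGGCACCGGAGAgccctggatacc
Tgfb2: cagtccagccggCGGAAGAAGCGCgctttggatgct
Tgfb3: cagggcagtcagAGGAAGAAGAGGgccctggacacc
In all 3 genes 112 codons follow the cut. Over these 336 coding bases Tgfb3 was 73.5% identical to Tgfb1 and 70.8% identical to Tgfb2, and Tgfb1 and Tgfb2 were 68.8% identical. Across the transcripts of all 45 pairs of the 10 genes the longest identical stretch was 38 bases, against reads of 150 bases.

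Ltbp3 had the lowest adjusted p between genotypes among the 10 genes, and the sequence at its start is given for that reason. RefSeq (GRCm38.p6) windows were used for 8 of the 10 genes, and those of Tgfb3 and Tgfbr3 were not analysed here. The window chr19:5740650-5740929 on the plus strand holds 250 bases before the RefSeq start of Ltbp3 and 30 after it, with matches to the SMAD motif CAGAC and the AP-1 motif TGANTCA in capitals.
Ltbp3: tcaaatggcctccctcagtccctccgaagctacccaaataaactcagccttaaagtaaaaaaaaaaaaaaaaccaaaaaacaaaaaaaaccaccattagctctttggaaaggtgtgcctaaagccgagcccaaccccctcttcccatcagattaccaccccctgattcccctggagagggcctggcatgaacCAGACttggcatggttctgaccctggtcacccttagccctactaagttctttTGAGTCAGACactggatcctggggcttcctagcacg
Both strands were searched. CAGAC was found at bases -58 to -54 and again at bases -1 to 4, where it shared its first bases with the AP-1 match TGAGTCA at bases -6 to 1. At least 1 CAGAC lay in 46.8% of 32851 RefSeq windows of this length and at least 2 in 14.3%, TGANTCA lay in 7.5%, and 1.11% held at least 2 CAGAC and 1 TGANTCA. No other window of these 8 genes held TGANTCA, and the windows of Tgfb1 and Ltbp4 held no CAGAC. A match describes letters only.

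Total counts ran from 17572752 to 25680411 per mouse in inguinal WAT on HFD, where each mouse had 2 libraries, from 8668279 to 11720458 in inguinal WAT on chow and from 8042591 to 10522554 in BAT, with 1 library per mouse. Levels are given as CPM (read counts scaled to a common library size) after TMM scaling across all 41 samples. Mfn2, whose substitution gene counts cannot check, was at 202 ± 25.8 CPM with the mutation and 159.9 ± 20.7 CPM in WT inguinal WAT on HFD (SD, n = 8 and 8), and KI against WT was not called in any of the 3 comparisons (adjusted p = 0.0114, 0.0840 and 0.113). The summed level of 7 brown adipocyte markers was 12181 to 22319 CPM in BAT and 15.0 to 857 CPM in inguinal WAT. Several mice stood apart in markers of other tissues. The lymphocyte sum ran from 5.90 to 595 CPM in inguinal WAT on HFD, with WT mice 2 and 6 and KI mouse 2 high. On chow, KI mouse 4 had a skeletal muscle sum of 56906 CPM, KI mouse 3 a lymphocyte sum of 369 CPM, and WT mouse 4 sums of 123 CPM for epithelium and 66.2 CPM for mesothelium. In inguinal WAT on HFD, KI mouse 3 had a skeletal muscle sum of 3503 CPM, against a group median of 111 CPM. In BAT that sum was 2772 CPM in WT mouse 2 (group median 19.5 CPM) and 758 CPM in KI mouse 6 (group median 6.35 CPM). Both inguinal comparisons of the genotypes were repeated without the 3 mice high in lymphocyte markers on HFD and without mice 4 on chow. Each mouse was also left out in turn, but WT mouse 2 and KI mouse 6 of BAT were not left out together.

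**Figure D1:**
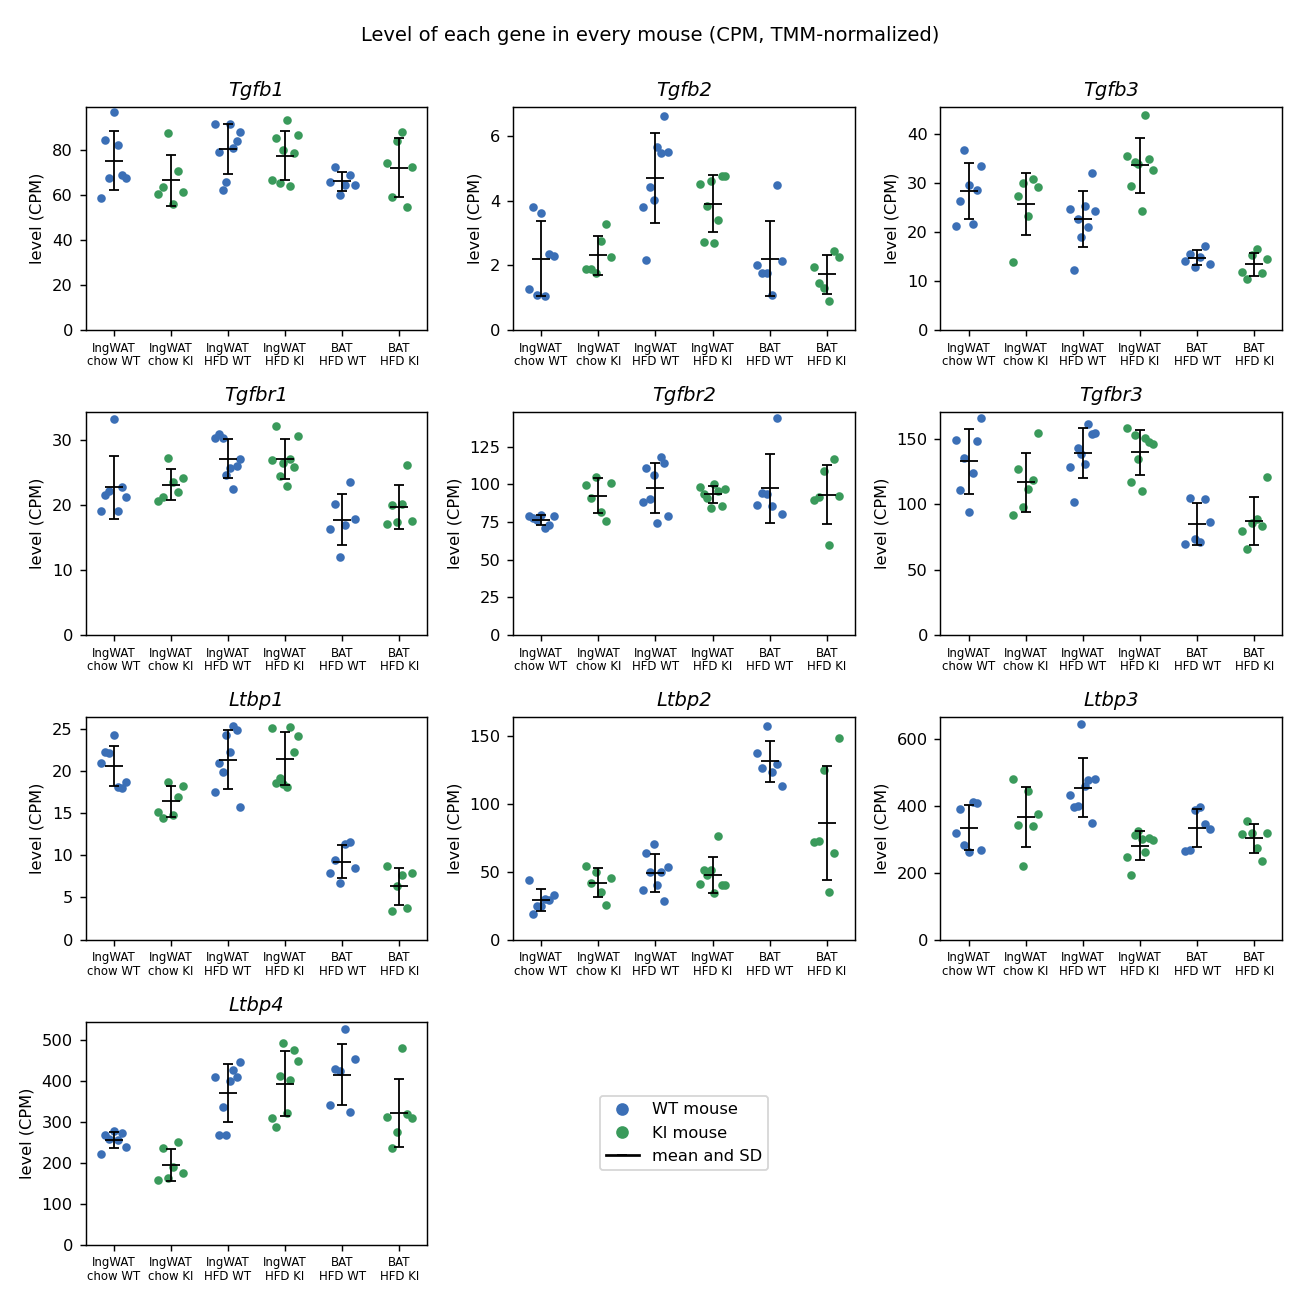
Level of each of the 10 genes in CPM (vertical axes, from 0) in every mouse of the 6 groups (horizontal axes), with blue points for WT mice, green points for KI mice and black bars for the mean and SD. In inguinal WAT on HFD all 8 KI mice lie below all 8 WT mice for Ltbp3, and 6 KI mice lie above all WT mice for Tgfb3.

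Per kilobase of gene model, the binding protein genes Ltbp4 and Ltbp3 stood highest and Tgfb2 lowest in each group. In WT inguinal WAT on HFD the mean level was 57.4 ± 11.0 CPM per kilobase for Ltbp4 and 50.2 ± 9.76 for Ltbp3 (SD, n = 8), and the mice of the 2 genes overlapped. Together they made up 32.6% and 28.4% of the summed level of the 10 genes. Below them came Tgfbr3 (21.3 ± 2.92), Tgfb1 (15.9 ± 2.21), Tgfbr2 (11.9 ± 2.02), Tgfb3 (6.69 ± 1.67), Ltbp2 (5.98 ± 1.69), Tgfbr1 (4.15 ± 0.468), Ltbp1 (1.99 ± 0.328) and Tgfb2 (0.813 ± 0.240), all in CPM per kilobase. Neighbours from Tgfbr3 down to Tgfbr1 overlapped, whereas Ltbp1 and Tgfb2 were each separated from the gene above by all mice. In BAT of WT mice Ltbp2 took the third place with 16.0 ± 1.83 CPM per kilobase (n = 6).

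Among the ligands, Tgfb1 carried most of the summed level per kilobase in every group. Its mean share ran from 59.1% ± 6.99 in KI inguinal WAT on HFD to 77.0% ± 2.07 in KI BAT (SD, n = 8 and 6). The share of Tgfb3 was 38.3% ± 6.74 in KI and 28.4% ± 4.95 in WT inguinal WAT on HFD, 35.6% ± 5.75 and 35.4% ± 6.15 on chow, and 21.4% ± 1.65 and 24.3% ± 1.11 in BAT. Tgfb2 held between 1.57% and 3.45% on average. Shares are descriptions and were not tested.

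**Figure D2:**
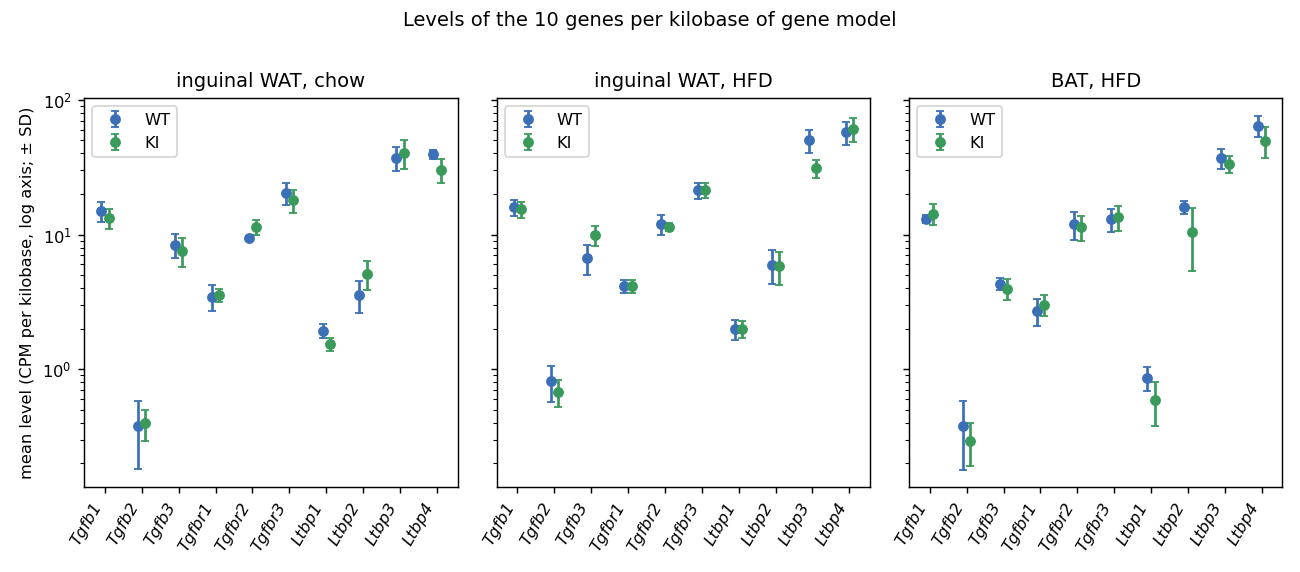
Mean level of the 10 genes (horizontal axes) in CPM per kilobase of gene model on a log axis, in inguinal WAT on chow, inguinal WAT on HFD and BAT on HFD, with blue points for WT, green points for KI and bars for the SD. Ltbp3 and Ltbp4 lie highest in all panels, and Ltbp2 lies higher in BAT than in inguinal WAT.

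The first question was whether KI and WT mice differed in inguinal WAT on HFD. Ltbp3 fell 1.61-fold and Tgfb3 rose 1.49-fold in KI mice, and the other 8 genes were not called. The threshold of the study was used throughout, so that a call needs an adjusted p below 0.01 (edgeR's quasi-likelihood test with Benjamini-Hochberg adjustment, here over 16471 genes). The 2 called genes of 10 stand against 11.5% of all tested genes called. The median log2 fold change of the 10 was -0.01, beside 0.01 over all genes.

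Ltbp3 (ENSMUSG00000024940, GRCm38 chr19:5740904-5758532, plus strand) encodes a secreted binding protein that covalently joins the latency peptide. In WT mice its lowest, median and highest levels were 348, 447 and 644 CPM, and in KI mice 193, 300.2 and 324 CPM. Every KI mouse was below every WT mouse, and Ltbp3 was the only one of the 10 genes whose genotypes did not overlap, where 4.53% of all genes did not. The means were 281 ± 43.8 and 455 ± 88.5 CPM (SD, n = 8 and 8), and the log2 fold change was -0.69 (SE 0.120, adjusted p = 3.97e-04). A 2-sided exact permutation test of the mean level gave p = 1.55e-04, the smallest value that 8 against 8 mice allow, and 0.00466 after adjustment over the 30 pairs of gene and genotype comparison. The call held whichever of the 16 mice was left out (log2 fold change between -0.74 and -0.61) and without the 3 mice high in lymphocyte markers (-0.65, adjusted p = 0.00106).

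Tgfb3 (ENSMUSG00000021253, GRCm38 chr12:86056745-86079041, minus strand) encodes the third ligand. It ran from 12.3 to 32.1 CPM in WT mice with a median of 23.4, and from 24.2 to 43.8 CPM in KI mice with a median of 34.1. The genotypes overlapped, with 6 of 8 KI mice above all WT mice. The means were 33.6 ± 5.58 and 22.6 ± 5.67 CPM (SD, n = 8 and 8) and the log2 fold change was 0.57 (SE 0.146, adjusted p = 0.00863, and 0.00189 with DESeq2). The exact permutation p was 0.00171, and 0.0256 over the 30 pairs. This call lay close to the threshold. It was kept in 4 of the 16 fits that left out 1 mouse (without WT mouse 2 or 7 or KI mouse 2 or 5) and lost in 12, those without WT mouse 1, 3, 4, 5, 6 or 8 or KI mouse 1, 3, 4, 6, 7 or 8, with adjusted p from 0.0130 to 0.0260 and log2 fold changes between 0.48 and 0.66 over all 16. Without the 3 mice high in lymphocyte markers the log2 fold change was 0.48 (adjusted p = 0.0116). Tgfb3 overlaps Ttll5 and the predicted genes Gm37804 and Gm48008 on the opposite strand. Their means were 12.0, 2.32 and 1.44 CPM in WT mice and 13.3, 3.76 and 1.94 CPM in KI mice, and without a stated strand setting their reads cannot be told apart from those of Tgfb3.

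Tgfb1, the most abundant ligand gene, was at 77.4 ± 11.0 CPM in KI and 80.3 ± 11.2 CPM in WT mice, a log2 fold change of -0.04 with a 95% interval from -0.24 to 0.15. Tgfb2 was at 3.91 ± 0.885 and 4.71 ± 1.39 CPM (log2 fold change -0.26, interval -0.65 to 0.12). The 3 receptor genes lay within 0.06 of 0 on the log2 scale, and their intervals ran from -0.24 to 0.19. Ltbp4, which encodes a binding protein needed for elastic fibres, was at 394 ± 79.0 CPM in KI and 371 ± 71.2 CPM in WT mice (log2 fold change 0.09, interval -0.17 to 0.35), and Ltbp1 and Ltbp2 had log2 fold changes of 0.01 and -0.03. For Ltbp3 against Ltbp4, the ratio of levels per kilobase was 0.516 ± 0.0736 in KI and 0.920 ± 0.346 in WT mice in this tissue. The order of the means was the other way on chow (1.39 ± 0.483 in KI and 0.933 ± 0.178 in WT mice) and in BAT (0.714 ± 0.232 and 0.579 ± 0.110), and the ratio was not tested.

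Markers of other cells also differed between these groups. The summed level of 7 fibroblast and progenitor markers was 717 to 1038 CPM in KI and 809.6 to 1460.2 CPM in WT mice, with 1 of the 7 called, Lum, a matrix proteoglycan, lower. That of 7 brown adipocyte markers was 28.5 to 62.8 CPM and 15.0 to 33.4 CPM, with 2 of 4 tested called higher. Of 6 white adipocyte markers, Adipoq and Lep fell and Lipe rose. None of the endothelial, mural, macrophage, lymphocyte or skeletal muscle markers was called. The part of these cells in the Ltbp3 and Tgfb3 differences was not tested, and in bulk tissue fewer cells of a type and less RNA per cell cannot be told apart.

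**Figure D3:**
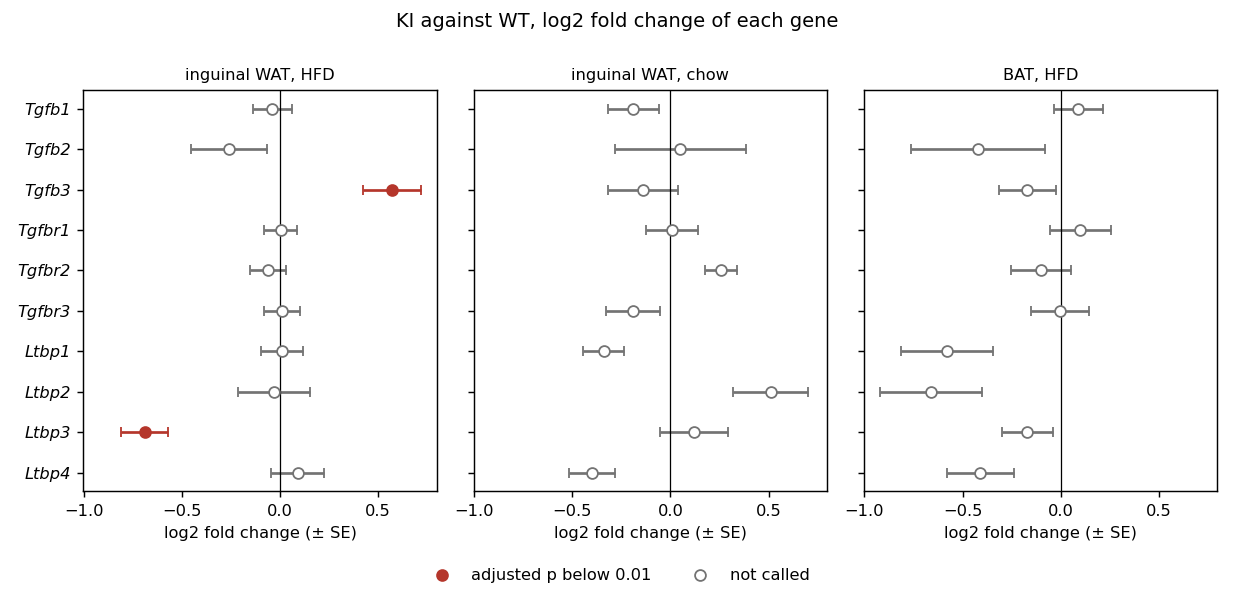
Log2 fold change of KI against WT (horizontal axes, bars are the SE) for each of the 10 genes in inguinal WAT on HFD, inguinal WAT on chow and BAT on HFD, with filled red points for adjusted p below 0.01. Only Ltbp3, at -0.69, and Tgfb3, at 0.57, are filled, both in inguinal WAT on HFD.

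On chow, none of the 10 genes was called in inguinal WAT by edgeR or by DESeq2, beside 3.23% of 14629 genes by edgeR, and 4 had an unadjusted p below 0.05, beside 24.3% of all genes. None had genotypes without overlap, against 4.22% of all genes. Ltbp4 ran from 158 to 249.9 CPM in KI mice (median 183) and from 222 to 277 CPM in WT mice (median 258), with 4 of 6 KI mice below all WT mice. Its log2 fold change was -0.40 (SE 0.118, adjusted p = 0.0483), and -0.37 with adjusted p = 0.107 without the 2 mice high in muscle or epithelial markers.

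Ltbp1, a binding protein that attaches latent TGFβ to fibrillin and fibronectin, ran from 14.4 to 18.7 CPM in KI and from 18.0 to 24.2 CPM in WT mice on chow (log2 fold change -0.34, SE 0.105, adjusted p = 0.0565). Tgfbr2, the receptor that binds ligand first, ran from 76.0 to 105 CPM in KI mice and within 71.1 to 79.6 CPM in WT mice (0.26, SE 0.0814, adjusted p = 0.0592). Here 5 of 6 KI mice stood above all WT mice. Ltbp2, which unlike its relatives is not known to bind latent TGFβ, was at 42.0 ± 10.4 CPM in KI and 29.3 ± 7.86 CPM in WT mice (0.51, SE 0.190, adjusted p = 0.111). Both genes called on HFD overlapped widely on chow. Ltbp3 was at 221, 358 and 479 CPM in KI and 263, 319.7 and 411 CPM in WT mice (lowest, median and highest), a log2 fold change of 0.12 with an interval from -0.21 to 0.46. Tgfb3 was at 25.7 ± 6.42 and 28.3 ± 5.74 CPM (-0.14, interval -0.50 to 0.21). Among cell markers on chow, the brown adipocyte sum was 151 to 857 CPM in KI and 41.2 to 123 CPM in WT mice. Of 4 brown adipocyte markers tested, Cidea (log2 fold change 3.02) and Cox8b (2.41) were called higher. Cox7a1 (2.00, adjusted p = 0.0505) and Ppargc1a (-0.70, adjusted p = 0.238) were not called, and Ppargc1a lay the other way. None of the 7 endothelial or 6 macrophage markers was called, with median log2 fold changes of -0.32 and -0.55 and all members below 0. The fibroblast and progenitor sum was 696 to 1049.9 CPM in KI and 935 to 1472 CPM in WT mice on chow. None of these 7 markers was called, with a median log2 fold change of -0.28 and 2 of the 7 above 0. The part of all these cells in the values on chow was not tested.

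In BAT none of the 10 was called by edgeR or DESeq2, beside 1.83% of 13267 genes by edgeR, with 3 at an unadjusted p below 0.05, beside 24.4% of all genes, and none without overlap, against 3.69% of all genes. The log2 fold change was negative for 8 of the 10, and their median was -0.17, beside -0.01 over all genes. The 3 with the lowest p were binding protein genes. Ltbp2 ran from 34.9 to 148 CPM in KI mice (median 72.0) and from 113 to 157 CPM in WT mice (median 127), so that 4 KI mice lay below all WT mice and the other 2, mice 3 and 6, lay among them (log2 fold change -0.66, SE 0.260, adjusted p = 0.138). Ltbp1 was at 3.40 to 8.78 CPM in KI and 6.75 to 11.6 CPM in WT mice, from 21 to 85 counts per mouse (-0.58, SE 0.236, adjusted p = 0.141). Ltbp4 was at 322 ± 83.4 and 416 ± 74.9 CPM (-0.41, SE 0.169, adjusted p = 0.149), with 5 of 6 KI mice below all WT mice and KI mouse 4 at 480.4 CPM. Ltbp3 was at 303 ± 42.5 CPM in KI and 333 ± 56.4 CPM in WT mice (-0.17, interval -0.43 to 0.08), and Tgfb3 at 13.4 ± 2.39 and 14.7 ± 1.53 CPM (-0.17, interval -0.45 to 0.11). Tgfb2 had only 7 to 32 counts per mouse, and its interval ran from -1.09 to 0.25. The fibroblast sum was 404 to 487 CPM in KI and 471 to 687 CPM in WT mice, with 1 of 7 markers called lower. None of the 6 macrophage, 6 mural or 7 endothelial markers was called. Their median log2 fold changes were -0.45, -0.40 and -0.23, with 0, 1 and 2 markers above 0. All 7 brown adipocyte markers lay above 0 (median 0.32), and none was called. The part of all these cells in the values in BAT was not tested.

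Whether the KI effect differed between diets or tissues was tested as an interaction. Neither edgeR test called any of the 10, beside 0.632% of 17400 genes for diet and 2.82% of 17214 genes for tissue. The KI effect on Ltbp3 was 0.80 lower on HFD than on chow on the log2 scale (difference -0.80, SE 0.214, adjusted p = 0.0363), and DESeq2 called this difference (-0.82, adjusted p = 0.00632). For Tgfb3 the corresponding difference was 0.73 (SE 0.245, adjusted p = 0.107). Between BAT and inguinal WAT on HFD the difference in the KI effect was -0.71 for Tgfb3 (SE 0.212, adjusted p = 0.0364) and 0.55 for Ltbp3 (SE 0.180, adjusted p = 0.0571). DESeq2 called no tissue difference. At unadjusted p below 0.05 the diet test held 5 of the 10 genes, beside 16.8% of all genes, and the tissue test 4, beside 22.0%.

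The same genes were then compared between diets within each genotype in inguinal WAT. In WT mice 4 of the 10 rose on HFD and none fell, beside 28.2% of 17400 genes called and 13.1% called higher. Tgfb2 went from 2.20 ± 1.16 CPM on chow to 4.71 ± 1.39 CPM on HFD (n = 7 and 8, log2 fold change 1.10, SE 0.266, adjusted p = 0.00144), at 11 to 200 counts per mouse. Ltbp2 rose from 29.3 ± 7.86 to 49.0 ± 13.9 CPM (0.74, SE 0.194, adjusted p = 0.00298), a call that was lost without HFD mouse 4 (0.63, adjusted p = 0.0116) or chow mouse 3 (0.68, adjusted p = 0.0102). Ltbp4 rose from 256 ± 19.7 to 371 ± 71.2 CPM (0.54, SE 0.136, adjusted p = 0.00214) and Tgfbr2 from 76.5 ± 3.31 to 97.6 ± 16.6 CPM (0.35, SE 0.0863, adjusted p = 0.00159). Tgfbr1, the receptor kinase that acts on SMADs, had a log2 fold change of 0.26 (adjusted p = 0.0420) and passed without chow WT mouse 4 (0.38, adjusted p = 0.00111), the mouse with high epithelial and mesothelial sums. Ltbp3 had one of 0.45 (adjusted p = 0.0173), passed with DESeq2 and with at least 10 counts in every mouse (0.47, adjusted p = 0.00869), and passed without chow KI mouse 3 (0.44, adjusted p = 0.00885), which enters through the shared estimate of spread.

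In KI mice 2 of the 10 rose on HFD, beside 30.6% called and 15.2% called higher. Ltbp4 rose 2.06-fold, from 195 ± 38.8 to 394 ± 79.0 CPM (log2 fold change 1.04, SE 0.145, adjusted p = 1.24e-06, n = 6 and 8), and the lowest HFD mouse, at 287 CPM, was above the highest chow mouse, at 249.9 CPM. Ltbp1 rose from 16.4 ± 1.85 to 21.4 ± 3.14 CPM (0.42, SE 0.115, adjusted p = 0.00423). That call was lost without HFD mouse 1 or 6 or chow mouse 1, 2 or 4, with adjusted p from 0.0120 to 0.0145. Tgfb2, the most changed ligand in WT mice, had a log2 fold change of 0.79 in KI mice (SE 0.278, adjusted p = 0.0221), and passed in a fit of the 2 groups alone (0.76, adjusted p = 0.00557). Ltbp3 was at 281 ± 43.8 CPM on HFD and 367 ± 90.9 CPM on chow (-0.35, SE 0.154, adjusted p = 0.0667), and passed without chow KI mouse 3 (-0.48, adjusted p = 0.00790). Diet cannot be told apart from the separate tables and from the 2 libraries per mouse on HFD. The endothelial sum was 1532 to 1839 CPM in WT mice on HFD and 1112 to 1485 CPM on chow, with 4 of 7 markers called higher, and 1409 to 1825 against 846 to 1307 CPM in KI mice, with 5 of 7 called higher. Of 7 brown adipocyte markers, 2 were called lower and 1 higher in WT mice, and 4 lower and 0 higher in KI mice. Of 6 mural markers, 1 was called higher in WT mice, and 3 higher and 1 lower in KI mice. The part of these cells in the diet differences was not tested.

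Between tissues on HFD, TMM scaling left the median log2 fold change of all genes at -0.09 in WT and -0.12 in KI mice (-0.11 and -0.13 with RLE scaling), and values are to be read against that shift. Tissue cannot be told apart from the separate tables and from 2 libraries per mouse in inguinal WAT against 1 in BAT. BAT of WT mice held less Tgfb2, Tgfb3, Tgfbr1, Tgfbr3, Ltbp1 and Ltbp3 than inguinal WAT and more Ltbp2. These 7 of 10 stand beside 55.9% of 17214 genes called, of which 29.0% of all genes were lower and 26.9% higher. KI mice had the same calls except for Ltbp3, 6 of 10, beside 59.1% called, 30.6% lower and 28.4% higher. No called gene changed direction with RLE scaling or DESeq2.

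Ltbp1 and Ltbp2 lay at opposite ends. Ltbp1 was at 9.26 ± 1.93 CPM in BAT and 21.3 ± 3.51 CPM in inguinal WAT of WT mice (log2 fold change -1.20, SE 0.168, adjusted p = 2.74e-07), and at 6.31 ± 2.24 and 21.4 ± 3.14 CPM in KI mice (-1.76, SE 0.174, adjusted p = 2.68e-10). Ltbp2 was at 131 ± 14.9 CPM in BAT and 49.0 ± 13.9 CPM in inguinal WAT of WT mice (1.42, SE 0.232, adjusted p = 6.07e-06), with no overlap. In KI mice it was at 85.9 ± 42.0 and 47.7 ± 13.0 CPM (0.83, SE 0.233, adjusted p = 0.00259), and the call was lost without BAT mouse 3 (0.69, adjusted p = 0.0130) or 6 (0.61, adjusted p = 0.0187), the 2 mice with the highest levels, and also without the filter on low counts (0.76, adjusted p = 0.0116) and in a fit of the 2 groups alone (0.82, adjusted p = 0.0151).

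Tgfb3 was lower in BAT by 0.63 on the log2 scale in WT (14.7 ± 1.53 against 22.6 ± 5.67 CPM, difference -0.63, SE 0.151, adjusted p = 5.96e-04) and by 1.34 in KI mice (13.4 ± 2.39 against 33.6 ± 5.58 CPM, difference -1.34, SE 0.154, adjusted p = 6.1e-09). Tgfb2 had log2 fold changes of -1.09 and -1.21. The co-receptor gene Tgfbr3 had -0.71 and -0.69 and Tgfbr1 -0.61 and -0.47, whereas Tgfbr2 had -0.01 in WT (interval -0.26 to 0.25) and -0.02 in KI mice (interval -0.27 to 0.24). Ltbp3 was called in WT mice alone, at 333 ± 56.4 against 455 ± 88.5 CPM (-0.45, SE 0.129, adjusted p = 0.00278), and lost the call without BAT WT mouse 1 (adjusted p = 0.0110) or 2 (adjusted p = 0.0101). In KI mice it had 0.10 (adjusted p = 0.493). Tgfb1 had -0.29 in WT mice (adjusted p = 0.0249), passing without inguinal WT mouse 3 (-0.34, adjusted p = 0.00677) and with at least 10 counts in every mouse (-0.40, adjusted p = 0.00240), and Ltbp4 had -0.30 in KI mice (adjusted p = 0.0845), passing without BAT KI mouse 4 (-0.45, adjusted p = 0.00948). All 6 macrophage markers were called lower in BAT in both genotypes, and 5 of 7 fibroblast and progenitor markers were lower and 1 higher; their part in these differences was not tested.

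**Figure D4:**
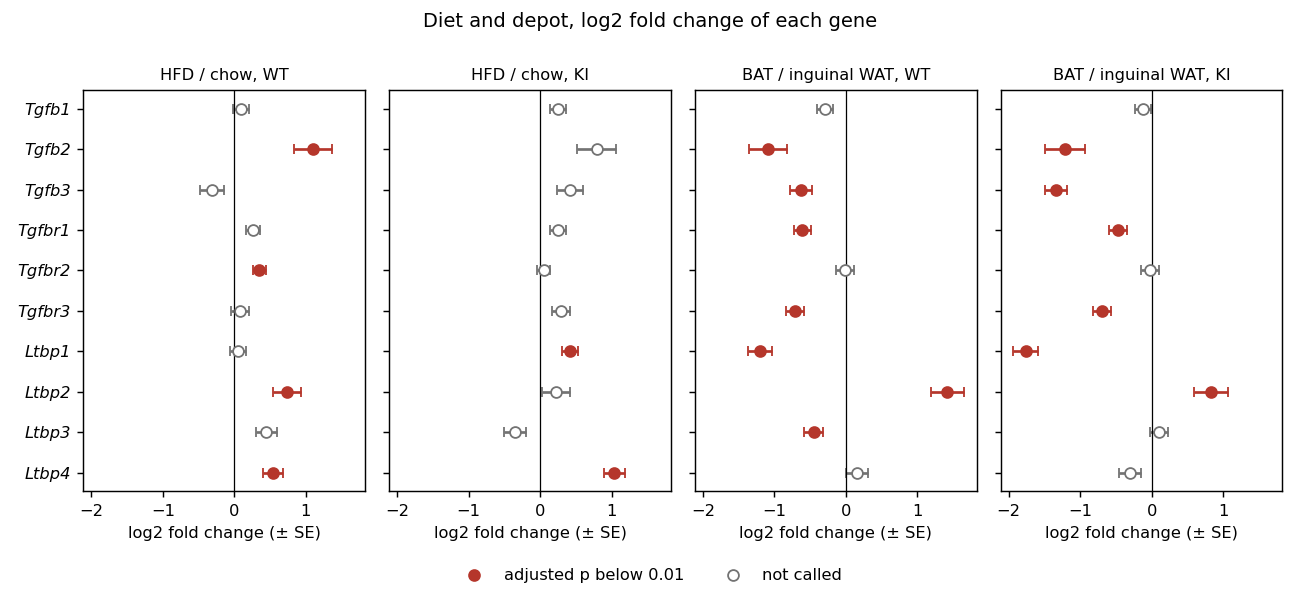
Log2 fold change (horizontal axes, bars are the SE) of each of the 10 genes for HFD against chow in inguinal WAT and for BAT against inguinal WAT on HFD, in WT and in KI mice, with filled red points for adjusted p below 0.01. Ltbp4 rises on HFD in both genotypes, and Ltbp1 (-1.20 and -1.76) and Ltbp2 (1.42 and 0.83) lie on opposite sides in BAT.

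The other genes of the pathway were taken as 4 lists that hold none of the 10. Of 15 tested genes that process, store or activate latent TGFβ, 2 rose and none fell in KI inguinal WAT on HFD, where 6.21% of all genes were called higher and 5.24% lower. Thbs1, encoding thrombospondin-1, which can free TGFβ from its latency peptide, went from 114 ± 58.8 CPM in WT mice to 339 ± 153 CPM with the mutation (log2 fold change 1.58, SE 0.317, adjusted p = 0.00213). Lrrc32, encoding GARP, which holds latent TGFβ at the cell surface, went from 39.8 ± 12.6 to 62.7 ± 12.3 CPM (0.66, SE 0.164, adjusted p = 0.00788). The list's median log2 fold change was -0.09. On chow and in BAT edgeR called none of it, with 4 of 15 and 3 of 12 tested genes at an unadjusted p below 0.05, near the shares of all genes (24.3% and 24.4%).

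Among 19 co-receptors, SMADs and SMAD regulators, 2 rose in inguinal WAT on HFD and none fell, where 6.21% of all genes were called higher and 5.24% lower. Tgif1, a SMAD co-repressor, went from 12.2 ± 1.78 to 20.4 ± 2.19 CPM (0.75, SE 0.0970, adjusted p = 2.07e-05), and Smurf1, a ubiquitin ligase that marks SMADs and receptors for degradation, from 63.2 ± 3.77 to 86.5 ± 10.8 CPM (0.46, SE 0.0706, adjusted p = 1.23e-04). The list's median was 0.14. On chow and in BAT edgeR called none of the 19, with 6 and 5 at an unadjusted p below 0.05, beside the same 24.3% and 24.4% of all genes. Tgif1 was higher in KI mice there too, though not called. Its log2 fold change was 1.04 on chow (SE 0.306, adjusted p = 0.0496) and 1.28 in BAT (SE 0.297, adjusted p = 0.0207). Smad7, named after its value was seen, had -1.02 in BAT (SE 0.228, adjusted p = 0.0164). In inguinal WAT it lay the other way, at 0.37 on HFD (adjusted p = 0.0693) and 0.30 on chow (adjusted p = 0.418).

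Of 24 tested genes that TGFβ is known to induce, 6 fell in KI inguinal WAT on HFD and none rose, where 5.24% of all genes were called lower and 6.21% higher. The list's median log2 fold change was -0.26, beside 0.01 over all genes. Ccn2 (Ctgf), also on this list of 25 genes, was not found under either symbol. Comp, a matrix glycoprotein, was at 1.82 ± 0.610 CPM in KI and 5.15 ± 1.81 CPM in WT mice (-1.49, SE 0.237, adjusted p = 1.72e-04), and Lox, the lysyl oxidase that crosslinks collagen, at 112 ± 23.3 and 208 ± 26.1 CPM (-0.89, SE 0.116, adjusted p = 2.31e-05). The other 4 were Snai2, Cdkn2b, Tnc and Zeb2, with log2 fold changes from -0.62 to -0.44, named after their values were seen. Beside these, the fibroblast and progenitor sum was lower in KI mice, as given above, and its part was not tested. On chow 1 of 23 fell, where 1.27% of all genes were called lower and 1.96% higher. It was Zeb2, a transcriptional repressor, at 80.1 ± 12.6 CPM in KI and 128 ± 15.4 CPM in WT mice (-0.69, SE 0.108, adjusted p = 0.00136). In BAT 1 of 20 fell, where 0.475% were called lower and 1.36% higher. It was Lox, at 14.8 ± 3.48 and 29.6 ± 9.67 CPM (-1.04, SE 0.202, adjusted p = 0.00647). The medians of the list were -0.45 on chow and -0.31 in BAT, beside -0.01 over all genes in both. The part of the cell markers given above for chow and BAT in these medians was not tested.

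In the bone morphogenetic protein (BMP) and activin arm, which signals through related receptors, 2 of 28 tested genes rose in KI inguinal WAT on HFD, near the 6.21% of all genes called higher. Smad9, a SMAD of the BMP arm, went from 0.292 ± 0.130 to 1.00 ± 0.386 CPM (1.75, SE 0.307, adjusted p = 4.33e-04). Its WT level lay near the floor, so it may have passed the filter on low counts only through the KI mice. On chow and in BAT it did not pass that filter. The ligand gene Bmp4 went from 8.81 ± 2.33 to 14.9 ± 3.23 CPM (0.77, SE 0.170, adjusted p = 0.00323), but had -0.81 on chow (adjusted p = 0.142) and -0.15 in BAT (adjusted p = 0.785). On chow 1 of 25 rose, beside 1.96% of all genes. It was Id1, a classic BMP target, from 83.2 ± 19.2 to 132 ± 12.1 CPM (0.66, SE 0.125, adjusted p = 0.00494), and in BAT none of 21 was called by edgeR, with 4 at an unadjusted p below 0.05, beside 24.4% of all genes.

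**Figure D5:**
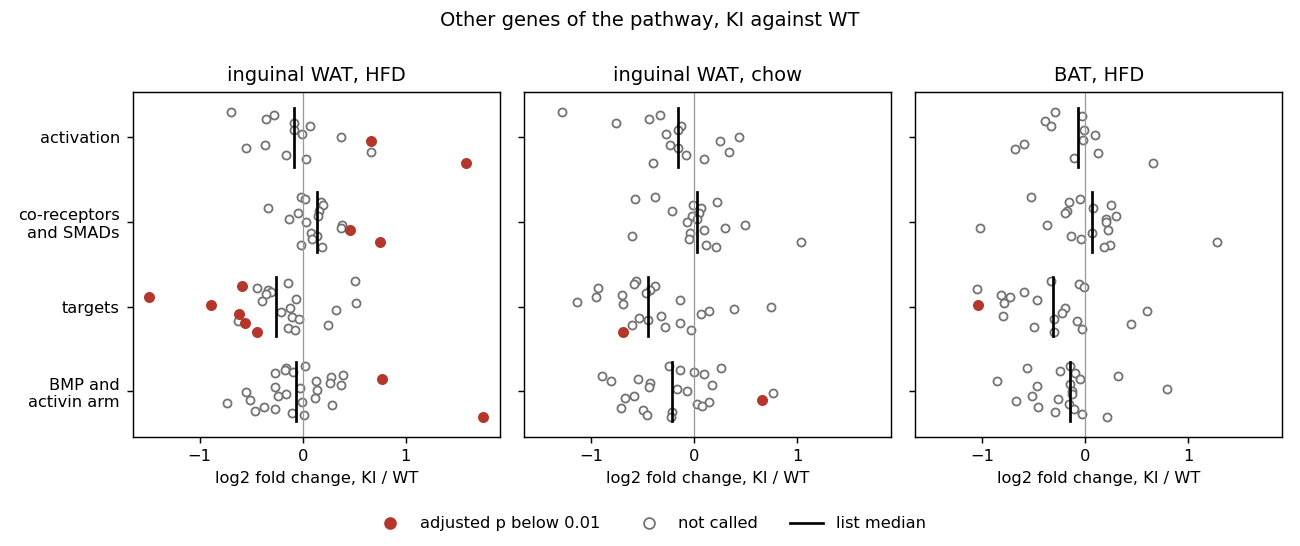
Log2 fold change of KI against WT (horizontal axes) for each tested gene of the 4 lists (rows) in inguinal WAT on HFD, inguinal WAT on chow and BAT on HFD, with filled red points for adjusted p below 0.01 and black bars for the list median. The 6 filled target genes in inguinal WAT on HFD all lie below 0, and the filled points of the other lists lie above 0.

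For the 2 genes called between genotypes, the genes with the most similar pattern were sought among 13034 genes over the 41 samples, as the smallest root mean square difference of standardised log2 levels, where an identical pattern gives 0. For Tgfb3 these were Prss23 (0.430), Ccl11 (0.435) and Aldh1a1 (0.467), against a median of 1.42 over all genes. For Ltbp3 the nearest were farther away, Wdr93 at 0.731, Ncan at 0.738 and Adh6b at 0.763, against a median of 1.41.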

How the data were processed

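RNA from snap-frozen tissue was made into TruSeq libraries and sequenced as paired-end reads of 150 bases. Per the submitters' notes and methods, adapters were removed (cutadapt), STAR mapped the reads to GRCm38, and featureCounts gave counts per gene; versions and strand setting are not given in the sources used here. The deposited tables hold raw counts per gene, 1 column per mouse, and the deposited gene length (unit other), from which levels per kilobase were computed. Entries without counts (1884) were removed, and of 200 entries that shared 99 symbols and had identical counts the first of each symbol was kept, leaving 52853 genes. Where a mouse had 2 libraries, its single column was taken as their joint count.

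Genes were filtered with filterByExpr, scaled by TMM and tested with edgeR 4.0.16 (R 4.3.3, robust quasi-likelihood) and Benjamini-Hochberg adjustment over all genes tested. KI and WT were compared in 3 fits of 2 groups. Diet and tissue contrasts and their interactions came from fits of 4 groups. Samples of BAT and inguinal WAT were taken as independent, since the sources do not say whether mice gave both. SE was derived from the log2 fold change and its F statistic, and 95% intervals use the normal distribution. Single levels were compared with 2-sided exact permutation tests. In edgeR a p-value weighs a difference against the spread between mice, estimated over all groups of a fit and partly shared between genes.

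Alternatives were RLE factors, DESeq2 1.42.0, no filter, at least 10 counts in every mouse, an adjusted p below 0.05, one fit of 6 groups, fits of 2 groups, mouse number as a block and leaving out each mouse. Leaving out mice by marker level was chosen after seeing the data. The edgeR step was tested on simulated data. The 10 genes, the lists of other genes and the naming rule (2 largest rises and falls per list and genotype comparison, and the 3 nearest patterns) were chosen with earlier results of these data known.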

Additional observations from a re-analysis of the deposited data

Results flagged for a closer look

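In 7 of the 60 sets of a gene and a group, 1 mouse stood apart from the rest by Dixon's criterion, where chance flags about 1 in 20 sets. Ltbp3 was at 644 CPM in WT mouse 4 of inguinal WAT on HFD, the highest level of any mouse, and the genotype call held without it. Ltbp2 was at 76.3 CPM in KI mouse 6 of the same tissue, and Tgfbr1 at 33.2 CPM in WT mouse 4 on chow, the mouse with high epithelial and mesothelial markers. The other 4 were in BAT, with Tgfb2 at 4.48 CPM and Tgfbr2 at 144 CPM in WT mouse 5, Tgfbr1 at 26.1 CPM in KI mouse 5 and Ltbp4 at 480.4 CPM in KI mouse 4. No difference of the KI effect between diets or tissues passed the threshold for the 10 genes with edgeR.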

How the results depend on the processing

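The Ltbp3 call in inguinal WAT on HFD held under every alternative run, and the 2 genes called there fell to 1, Ltbp3, without the filter on low counts, with mouse number as a block and without the 3 mice high in lymphocyte markers. Leaving out 1 mouse gave 1 to 2. On chow 0 genes became 1 at an adjusted p below 0.05 (Ltbp4). HFD against chow in KI mice went from 2 to 1 in one fit of all 6 groups, and ran from 1 to 3 when 1 mouse was left out. The diet difference of the KI effect went from 0 to 1 with DESeq2 and at an adjusted p below 0.05 (Ltbp3 in both), and the tissue difference from 0 to 1 at an adjusted p below 0.05 (Tgfb3). No called gene reversed, and of 716 values under alternatives 30 changed sign, all in genes not called. The causes of these changes were not tested.

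Mouse numbers are shared between genotypes, and were not taken to pair the mice, since not every same-numbered pair correlated above 0.1 (2 of 8 on HFD, 2 of 6 on chow and 3 of 6 in BAT). Deviations of same-numbered mice correlated from -0.244 to 0.654 in inguinal WAT on HFD, from -0.276 to 0.179 on chow and from -0.0768 to 0.432 in BAT, and the own number was the best match in 1, 1 and 3 mice. With the number as a block, Tgfb3 in inguinal WAT on HFD had a log2 fold change of 0.60 (adjusted p = 0.0102) and Ltbp3 -0.69 (adjusted p = 6.49e-04), and over all genes 1545, 127 and 363 were called on HFD, on chow and in BAT, against 1886, 472 and 243. DESeq2 called 2754, 1116 and 714, and one fit of 6 groups 1242, 1088 and 834. Depth limits Tgfb2 in BAT (7 to 32 counts per mouse), and with at least 10 counts required in every mouse it had no value in the comparisons with BAT.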
